A study of Mus musculus with 8 samples.

Results

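The genes described are the adult globins Hba-a1, Hba-a2, Hbb-b1 and Hbb-b2, the embryonic globins Hba-x, Hbb-bh1 and Hbb-y, the alpha globin chaperone gene Ahsp, and Bcl11a and Sox6, which encode repressors of embryonic globin genes. They are the 10 genes of this list named on the non-control spots of the arrays (Ahsp also under its older name Eraf), out of 19296 genes tested. All 10 had a probe that was tested, 12 probes in all, with 2 each for Hbb-y and Bcl11a. The samples were erythroid progenitors of C57BL/6 mice, taken from E14.5 fetal liver, infected with a virus and cultured for 3 days. Magnetic depletion had removed cells carrying lineage markers, Sca-1, CD16/32, CD41 or CD34, and sorting had kept cells with c-kit and with CD71 in the lowest 10%. The 8 arrays form 4 groups of 2. A control virus was given to cells cultured without DEX and to cells cultured with it, and cells that received shRNA1 or shRNA2 by virus were all cultured with DEX, which is taken here as dexamethasone, a glucocorticoid. Both hairpins were directed at an RNA-binding protein that the labels do not name. No group received a hairpin without DEX, and the labels do not give whether infected cells were selected. Nothing in them gives whether the 2 samples of a group came from separate animals or cultures, so p-values here measure only how much these samples vary, which may be technical.

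Haemoglobin is a tetramer of alpha-type and beta-type globin chains, each holding a haem. In the mouse, primitive red cells of the yolk sac make the embryonic chains (zeta from Hba-x, epsilon-y from Hbb-y and beta-h1 from Hbb-bh1), and definitive red cells of the fetal liver make the adult ones. BCL11A and SOX6 are transcription factors that silence the embryonic beta-type genes in definitive cells, and loss of either is known to leave Hbb-y expressed there. C57BL/6 mice carry the beta globin haplotype whose adult genes are called Hbb-bt and Hbb-bs, while Hbb-b1 and Hbb-b2 are the names of the other common haplotype.

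The probes set what each value can mean for copies that are nearly alike. Below are 4 of them as the array files give them, 1 for each kind of chain, in lower case since no base is singled out.
Hba-a1 probe: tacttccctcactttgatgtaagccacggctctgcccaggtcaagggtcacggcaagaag
Hba-x probe: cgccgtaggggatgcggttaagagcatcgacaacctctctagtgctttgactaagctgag
Hbb-b2 probe: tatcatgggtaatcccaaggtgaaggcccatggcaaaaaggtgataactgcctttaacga
Hbb-y probe: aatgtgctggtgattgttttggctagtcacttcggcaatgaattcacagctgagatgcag
The Hba-a1 probe lies at chr11:32183955-32184014 on the plus strand of mouse build mm9, and the files list transcripts of both Hba-a1 and Hba-a2 for it. The same holds for the Hba-a2 probe, so neither value belongs to 1 gene alone. The Hba-x probe is at chr11:32177668-32177727 (mm9, plus strand), and the files give transcripts of Hba-x only. The printed Hbb-y probe is at chr7:111000448-111000507 (mm9, minus strand); the other Hbb-y probe lies at chr7:111000268-111000327, and the Hbb-y values below come from that one, which had the higher mean. The files give no position for the Hbb-b2 and Ahsp probes. The transcript behind the Hbb-b1 probe is named Hbb-bt in RefSeq, and the array also holds an Hbb-bs probe whose predicted transcripts overlap with those of the Hbb-b2 probe, so the adult beta values are given under the files' names. Exons and untranslated regions are not stated, because an mm9 annotation was not used. Between the adult and the embryonic probes the highest ungapped identity, at the offset with the most shared bases, was 46.2% over 52 bases (Hbb-b1 and Hbb-y). Identity between probes does not show which transcripts a probe binds. The Hba-a1 and Hba-a2 probes shared only 41.7% over 60 bases, though both genes are listed for each. Embryonic probes were not set against adult transcripts, so shared signal between them was not tested.

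The promoters show which genes share regulatory sequence and which hold letters of known repressor sites. RefSeq promoters (build GRCm38.p6, whose positions cannot be set beside the mm9 positions above) were matched by symbol for 6 of the 10 genes and for Hbb-bt and Hbb-bs, and the 150 bases before the start of 4 of them follow. Capitals mark matches on either strand to CACCC (the core of KLF1 boxes), CCAAT (the CCAAT box), GATAA (the core of GATA factor sites), TGACCA (the core of BCL11A sites) and AACAAT (a core of SOX factor sites), motifs chosen with these promoters in view.
Hba-x promoter, chr11:32276450-32276599, plus strand: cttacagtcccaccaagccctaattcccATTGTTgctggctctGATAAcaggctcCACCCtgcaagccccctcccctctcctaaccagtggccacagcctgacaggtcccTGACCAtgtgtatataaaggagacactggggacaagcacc
Hbb-y promoter, chr7:103853208-103853357, minus strand: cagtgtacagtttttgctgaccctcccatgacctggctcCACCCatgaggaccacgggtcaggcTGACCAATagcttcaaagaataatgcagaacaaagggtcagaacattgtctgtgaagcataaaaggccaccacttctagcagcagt
Hba-a1 promoter, chr11:32283522-32283671, plus strand: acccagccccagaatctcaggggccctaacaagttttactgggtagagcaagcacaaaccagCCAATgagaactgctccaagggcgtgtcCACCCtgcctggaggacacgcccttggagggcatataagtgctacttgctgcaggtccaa
Hbb-bt promoter, chr7:103813924-103814073, minus strand: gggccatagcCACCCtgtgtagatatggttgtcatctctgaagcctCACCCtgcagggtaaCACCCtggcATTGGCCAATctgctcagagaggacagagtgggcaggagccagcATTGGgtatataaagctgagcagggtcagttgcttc
In Hbb-y the TGACCA match (bases -86 to -81 from the start) shares letters with the CCAAT match, and in Hba-x it lies at -40 to -35. AACAAT matched in the Hba-x window but not in that of Hbb-y. Other forms of SOX factor sites were not searched, so a window without AACAAT may still hold them. Neither TGACCA nor AACAAT was in the windows of Hba-a1, Hba-a2, Hbb-bt and Hbb-bs. Of the 32851 promoters of this length in the table, 7.0% held TGACCA, 5.3% AACAAT, 13.3% GATAA, 24.5% CCAAT and 37.4% CACCC. A match is a description of letters and not of a bound site. The Hba-a1 and Hba-a2 promoters were identical over 147 bases once shifted by 3 bases, whereas those of Hbb-bt and Hbb-bs matched at 71.1% over 149 bases.

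Each gene's value is the log2 of its processed signal minus the 75th percentile of its array, so 0 is the level of that percentile and 1 unit is a factor of 2; it has no meaning between different probes. The replicate numbers are also the slides: slide 1 held replicate 1 of every group and slide 2 held replicate 2. The 75th percentile itself ranged 4.33-fold between the arrays, from 476 on shRNA1 replicate 1 to 2061 on control with DEX replicate 2. It was lower on the first slide within each group. The scaling moved the median change of all genes from -0.59 to 0.18 with shRNA1 and from -0.58 to 0.01 with shRNA2, but only from -0.05 to -0.08 with DEX. Between 59.5% and 62.9% of spots were well above background, and no spot was saturated. That the targeted protein is Zfp36l2 is known from the published work and not from the labels. Its level was 3.49 and 3.85 in controls without DEX, 5.55 and 5.42 with DEX, 4.09 and 3.92 with shRNA1, and 4.12 and 3.70 with shRNA2, so both hairpin groups lay below the control with DEX. Its adjusted p in limma was 0.923 for shRNA1 and 1 for shRNA2.

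Markers fixed for the cell types were read on the same arrays. All 13 erythroid markers were well above background on all 8 arrays. Erythroid sums ranged from 165 to 507 times the array's 75th percentile, highest on shRNA1 replicate 1, and were 265 on shRNA2 replicate 1. Of 10 hepatocyte markers 4 to 7 were well above it on an array: Afp, Apoa2, Serpina1a and Trf on all 8, Apoa1 on 7, Ahsg on 6, Fga on 4, and Alb, Ttr and Fgb on 0. They summed to 1.32 and 1.36 times the array's 75th percentile without DEX and to between 1.46 and 2.79 on the other arrays. Granulocyte markers (14 of 14 well above background on every array) summed to 41.2 and 182 times the array's 75th percentile in controls without DEX and to 38.0 and 67.1 with DEX. With shRNA1 they summed to 134 and 147, and with shRNA2 to 564 on replicate 1 and 92.0 on replicate 2. Megakaryocyte markers (9 of 9) were also highest on shRNA2 replicate 1, at 206 against 14.4 to 82.2 on the other arrays. Monocyte and macrophage markers (6 or 7 of 9 well above background) reached 13.3 there against 1.68 to 9.05, with C1qc well above background on 0 of 8. Mast cell and basophil markers (6 to 9 of 11 well above background) were highest on shRNA1 replicate 1, at 11.9. Their sum was 11.5 on shRNA2 replicate 1 and 1.93 to 6.09 on the other arrays. Whether these cells bear on the globin values was not tested. In bulk RNA, fewer cells of a type and less RNA per cell cannot be told apart. All these sums are relative to the array's 75th percentile, which was 522 on shRNA2 replicate 1 and 1923 on control without DEX replicate 2. Sums before scaling were not taken, so the order of the arrays holds for scaled levels only.

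Adult alpha globin filled the top of the arrays in every sample and hardly differed before scaling. The Hba-a2 probe read 577352 and 613738 in controls without DEX, 603763 and 628163 with DEX, 592044 and 592968 with shRNA1, and 517293 and 531058 with shRNA2. Its highest and lowest signals differed 1.21-fold, and at most 2 probes of an array were brighter. The Hba-a1 probe ranged 1.29-fold and the Hbb-b1 probe, for an adult beta chain, 1.14-fold. After scaling the same probes spanned 4.74-fold (Hba-a1), 4.08-fold (Hba-a2) and 4.31-fold (Hbb-b1), and every array of the first slide lay above its partner on the second.

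**Figure D1:**
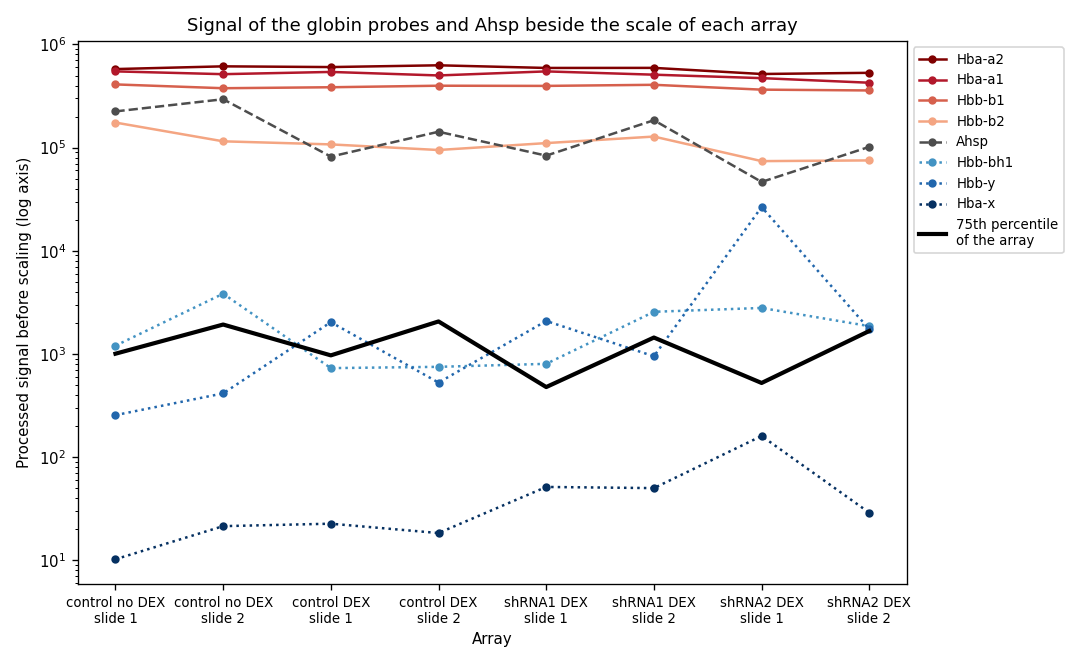
Processed signal of the adult globins (red lines), the chaperone gene Ahsp (grey dashes) and the embryonic globins (blue dots) on each of the 8 arrays, on a log axis, with the 75th percentile of each array (black); lines only join the arrays, and levels of different probes cannot be set against each other. The Hba-a1, Hba-a2 and Hbb-b1 lines are nearly flat while the percentile ranges 4.33-fold; Hbb-b2 without DEX on slide 2 carries an outlier mark and was left out of the fits.

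With DEX the 3 flat adult probes did not separate the groups, and their directions depended on the scaling. The log2 change was -0.05 for Hba-a1 (95% interval -2.19 to 2.08), 0.03 for Hba-a2 (-1.91 to 1.96) and -0.03 for Hbb-b1 (-2.03 to 1.97), where median scaling gave 0.04, 0.12 and 0.07 and quantile normalization -0.12, -0.14 and 0.05. With shRNA1 they differed by 0.79, 0.71 and 0.81, but without scaling by 0.02, -0.06 and 0.04. For shRNA2 the changes were 0.38, 0.37 and 0.48, and without scaling -0.22, -0.23 and -0.11. So the shRNA2 direction of all 3, and the shRNA1 direction of Hba-a2, flipped when the array scale was not applied.

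Hbb-b2, a probe named for an adult beta gene of the other common haplotype, ranged 2.37-fold in signal. Its level was 7.45 in the 1 usable control without DEX (the other spot carried an outlier mark, so 7 arrays were fitted), 6.80 and 5.52 with DEX, 7.86 and 6.47 with shRNA1, and 7.15 and 5.49 with shRNA2. The fitted change with DEX was -1.29 (SE 1.01), but that compares a first-slide control with both slides. Within the first slide it was -0.65, and with the slide as a block -0.57. With shRNA1 Hbb-b2 differed by 1.01 (slides 1.06 and 0.95; 0.24 without scaling), and with shRNA2 by 0.16 (slides 0.35 and -0.03; -0.09 under median scaling). The Hbb-bs probe gave -0.76 with DEX, 1.00 with shRNA1 and 0.12 with shRNA2. Its predicted transcripts overlap with those of the Hbb-b2 probe, and which C57BL/6 gene gave the Hbb-b2 signal was not settled.

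Ahsp, whose product binds free alpha globin and keeps it stable until it meets a beta chain, was lower with DEX on both slides. Its level was 7.81 and 7.26 without DEX, 6.40 and 6.11 with DEX, 7.46 and 7.0 with shRNA1, and 6.48 and 5.93 with shRNA2. Controls without DEX and the shRNA1 group overlapped at the top, the DEX controls and the shRNA2 group overlapped at the bottom, and the 2 upper groups did not overlap with the 2 lower ones. With DEX the change was -1.27 (SE 0.37; slides -1.40 and -1.15), and it was between -1.29 and -1.18 under the other scalings of the same signal, but -0.48 with normexp on the local background. It did not pass limma over all genes (adjusted p = 1; with the slide as a block 0.0800). Under shRNA1 the gene was higher by 0.97 (SE 0.37; slides 1.05 and 0.89), although by only 0.20 without scaling (limma adjusted p = 0.923, blocked 0.230). For shRNA2 the change was -0.05 (slides 0.07 and -0.18), and -0.65 without scaling.

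Hbb-y, the epsilon-y globin gene, had the widest range of the 10 genes, 104-fold in signal. Its signal was 254 and 413 in controls without DEX and 2029 and 526 with DEX. With shRNA1 it was 2082 and 947, and with shRNA2 it was 26527 and 1733. Normalized levels were -1.98 and -2.22, 1.07 and -1.97, 2.13 and -0.60, and 5.67 and 0.06 in the same order. These values are from the Hbb-y probe whose sequence is not printed. The controls without DEX were the 2 lowest arrays and shRNA2 replicate 1 the highest, at a signal that 964 probes of that array exceeded, while the spread within each DEX group crossed the neighbouring groups. The level from this probe minus that from the printed Hbb-y probe was between -0.01 and 0.21 log2 units on every array.

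The log2 change of Hbb-y with DEX was 1.65 (SE 1.99), made up of 3.05 on slide 1 and 0.25 on slide 2. With normexp on the local background it was 0.08. With shRNA1 it was 1.21, with 1.06 and 1.37 on the slides, and 0.44 without scaling. With shRNA2 it was 3.31, a 9.93-fold difference, with 4.60 and 2.03 on the slides, and 2.71 without scaling. The gene was thus higher with each hairpin on both slides than its DEX control, but the groups overlapped and none of the 3 changes passed limma (blocked adjusted p = 0.855, 0.548 and 0.782). The first-slide array with shRNA2 was also the one with the highest granulocyte and megakaryocyte sums.

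Hbb-bh1, the beta-h1 globin gene, was lowest in the DEX controls. Its level was 0.26 and 0.99 without DEX, -0.41 and -1.46 with DEX, 0.75 and 0.83 with shRNA1, and 2.42 and 0.16 with shRNA2. Both DEX controls lay below all 6 other arrays, and the other 3 groups overlapped. The change with DEX was -1.56 (SE 0.78; slides -0.67 and -2.46), opposite in sign to that of Hbb-y. With shRNA1 it was 1.72 (slides 1.16 and 2.29), a 3.31-fold difference, and with shRNA2 2.22 (slides 2.83 and 1.62), a 4.67-fold one. Without scaling these were 0.96 and 1.62, and with normexp on the local background the shRNA2 change was 1.40. None passed limma (adjusted p = 1, 0.923 and 1; blocked 0.607, 0.285 and 0.782).

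Hba-x, the zeta globin gene, was at or near background in the controls. It read 10.2 and 21.3 without DEX, neither well above background, and 22.5 and 18.3 with DEX, of which the first was. With shRNA1 it read 51.2 and 49.9, and with shRNA2 160 and 28.8, all 4 well above background. The hairpin arrays were the 4 brightest in signal, but after scaling shRNA2 replicate 2 (-5.85) lay below control with DEX replicate 1 (-5.42). No change with DEX is given, since 3 of its 4 spots were not well above background. The normalized changes were 2.09 with shRNA1 (SE 1.35; slides 2.20 and 1.97) and 2.34 with shRNA2 (slides 3.72 and 0.96), from a control group in which 1 of 2 arrays measured the gene. Without scaling these were 1.32 and 1.74, and in the authors' deposited values 0.81 and 1.38. Neither passed limma (blocked adjusted p = 0.304 and 0.782).

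**Figure D2:**
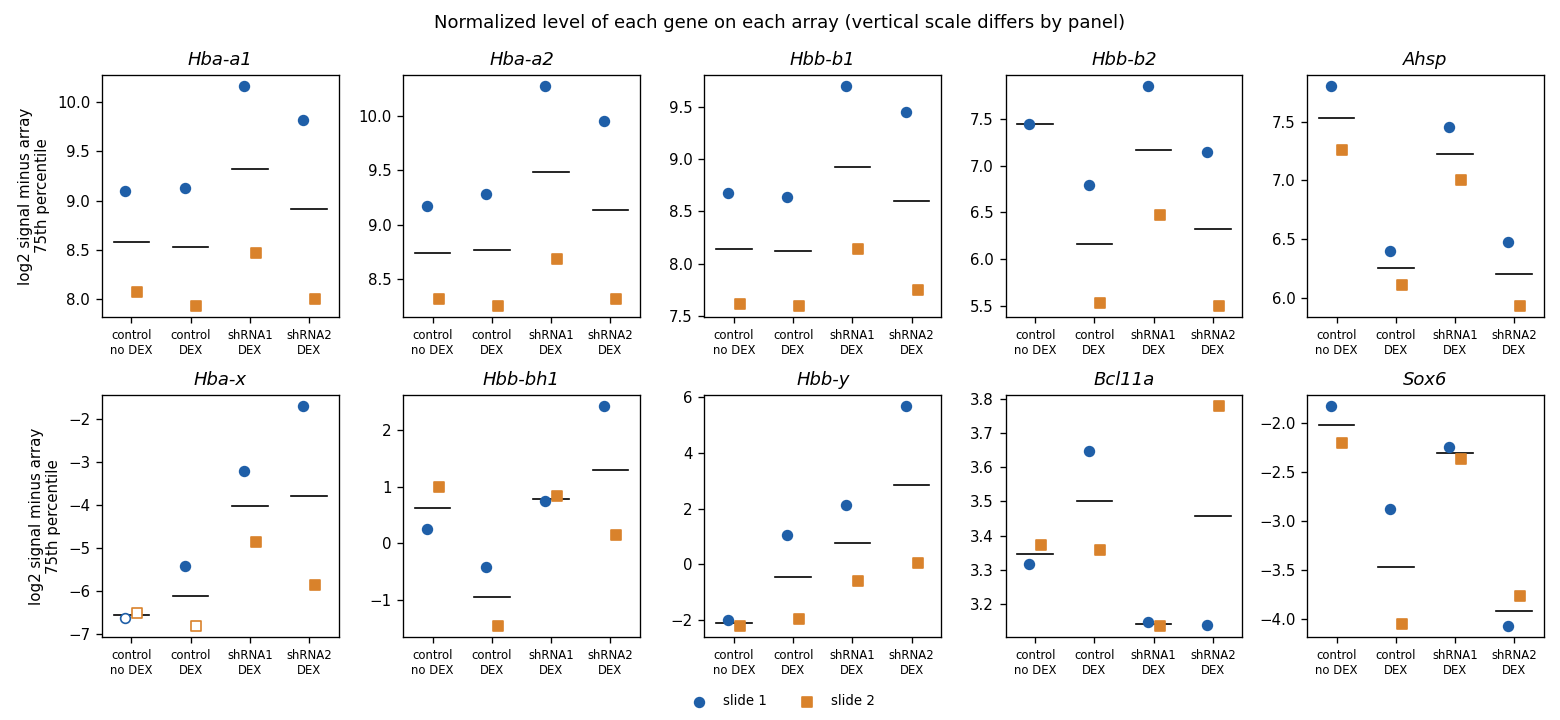
Normalized log2 level of each gene on each array, with slide 1 as circles, slide 2 as squares, group means as black bars and open markers for spots not well above background; the vertical scale differs by panel. The first-slide points lie above the second-slide ones for the adult globins, shRNA2 on slide 1 is highest for Hba-x, Hbb-bh1 and Hbb-y, and Ahsp is higher without DEX and with shRNA1 than in the other 2 groups.

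Sox6, which encodes a repressor that acts with BCL11A at the embryonic beta globin genes, followed nearly the same order as Ahsp. Its level was -1.83 and -2.21 without DEX, -2.88 and -4.05 with DEX, -2.25 and -2.37 with shRNA1, and -4.07 and -3.76 with shRNA2. The controls without DEX lay just above the shRNA1 arrays, both groups lay above the other two, and the DEX controls and the shRNA2 arrays overlapped. With DEX it was lower by a log2 change of -1.44 (SE 0.45; slides -1.05 and -1.84), 2.72-fold. With shRNA1 the change was 1.15 (slides 0.63 and 1.68), and 0.38 without scaling. With shRNA2 it was -0.45, of which the first slide gave -1.19 and the second 0.29; without scaling it was -1.05, and with normexp on the local background 1.87. Adjusted p in limma was 1, 0.923 and 1, and 0.234, 0.255 and 0.784 with the slide as a block.

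Bcl11a, the other repressor gene, spanned the narrowest normalized range of the 10 genes, 1.56-fold. Its level was 3.32 and 3.37 without DEX, 3.65 and 3.36 with DEX, 3.15 and 3.13 with shRNA1, and 3.14 and 3.78 with shRNA2. Only the shRNA1 arrays stood apart from their controls, both lower. The changes were 0.16 with DEX (SE 0.33), -0.36 with shRNA1 (slides -0.50 and -0.22; interval -1.16 to 0.44) and -0.04 with shRNA2 (slides -0.51 and 0.42). These did not pass limma (adjusted p = 1, 0.923 and 1). Without scaling the hairpin changes were -1.13 and -0.64, and normexp on the local background gave 0.79 with DEX and -1.15 with shRNA2. The second Bcl11a probe, for 1 predicted transcript, was well above background on 5 of 8 arrays and adds no measure of the gene.

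**Figure D3:**
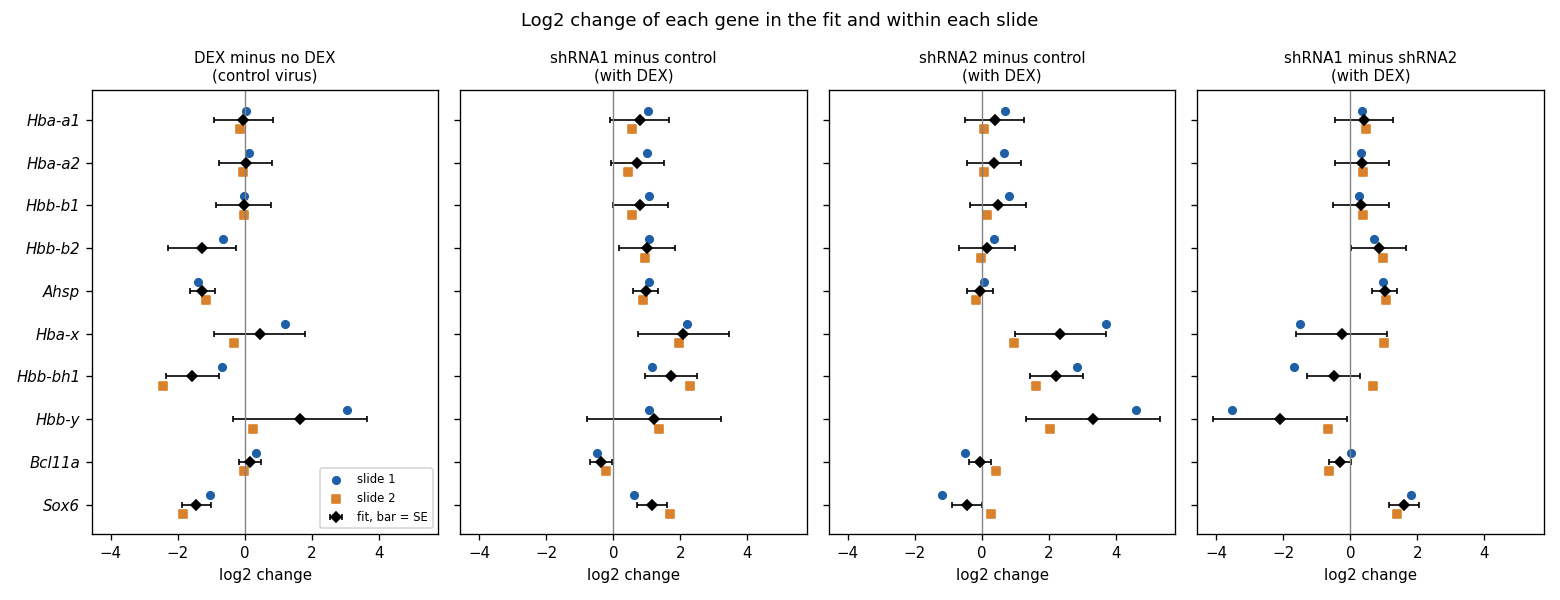
Log2 change of each gene in the 4 comparisons, with the fitted value and its SE (black diamonds and bars) and the difference within each slide (circles and squares). Ahsp and Sox6 lie below 0 with DEX and above 0 with shRNA1 on both slides. Hba-x, Hbb-bh1 and Hbb-y lie above 0 with each hairpin on both slides. Hbb-b2 with DEX rests on 1 control array, and the adult globin directions flip with the scaling for DEX and for shRNA2. With shRNA1 and no scaling, Hba-a2 flips to -0.06 and Hba-a1 and Hbb-b1 fall to 0.02 and 0.04.

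Counts over the 10 genes were read against all 19296. With DEX 0 of 10 genes and 0% of all genes passed an adjusted p of 0.05 in limma; with the slide as a block 0 of 10 and 0.228% did. At an unadjusted p under 0.05, 2 of 10 and 596 genes in all did (2 and 1843 with the block). The DEX arrays were higher without overlap for 1 of 10 genes (Hbb-y, whose nearest arrays were at -1.97 and -1.98), where 10.4% of all genes were. They were lower without overlap for 4 of 10 (Ahsp, Sox6, Hbb-bh1 and Hbb-b2, the last on 1 control array), where 16.7% of all genes were.

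Passing numbers were as low with the hairpins. With shRNA1 0 of 10 genes and 0% of all genes passed, and again 0% with the block (limma; 2 of 10 and 402 in all at an unadjusted p under 0.05, and 6 and 3438 with the block). Without overlap 4 of 10 were higher (Ahsp, Sox6, Hba-x and Hbb-bh1) against 18.1% of all genes, and 1 was lower (Bcl11a) against 7.63%. Hba-x was tested only because it was well above background in the hairpin groups, so its place among the 4 was favoured by that filter. With shRNA2 0 of 10 and 0% passed, and 0.00518% of all genes with the block (1 and 241 at an unadjusted p under 0.05, and 2 and 1097 with the block). Without overlap 1 was higher (Hbb-bh1) against 7.38%, and 0 were lower against 8.29%. Both hairpin comparisons use the same 2 control arrays with DEX.

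The hairpins were compared directly as shRNA1 minus shRNA2. Ahsp was higher with shRNA1 by 1.02 (SE 0.37; slides 0.98 and 1.07; interval 0.12 to 1.93), a 2.03-fold difference. Sox6 was higher by 1.61 (SE 0.45; slides 1.82 and 1.39; interval 0.53 to 2.69), a 3.05-fold one. With normexp on the local background the Sox6 difference turned to -0.82 and that of Ahsp was 1.99. The 13 erythroid markers lay higher with shRNA1 too, with a median of 0.80 relative to all genes and 12 of 13 above the median of all genes; their part in these differences was not tested. Ahsp and Sox6 were the 2 of 10 genes higher without overlap, where 12.5% of all genes were, and 0 were lower, where 4.63% were. Hbb-y differed by -2.10, but with an interval of -6.94 to 2.74 and slides of -3.54 and -0.66. Hba-x (-1.51 and 1.00) and Hbb-bh1 (-1.67 and 0.67) had opposite signs on the 2 slides. In limma 0 of 10 genes and 0% of all genes passed, also 0% with the block (2 of 10 and 457 in all at an unadjusted p under 0.05; 3 and 2114 with the block).

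Embryonic against adult globins were compared as the mean log2 change of Hba-x, Hbb-bh1 and Hbb-y minus that of the 4 adult probes. These 4 probes need not stand for 4 separate genes. The scale of the array cancels in the embryonic minus adult value for the hairpins, but not for DEX, where Hbb-b2 lacks a control array. Before scaling, the adult probes Hba-a1, Hba-a2 and Hbb-b1 ranged only 1.29-, 1.21- and 1.14-fold. Whether probes this bright can register an adult change was not tested. Since the genes were chosen with results known, the embryonic minus adult value carries no p. Hba-x was tested only through the hairpin groups, where it was high, so values without it are given too. With DEX the value was 0.51, from 1.33 on slide 1 and -0.77 on slide 2, so the slides opposed each other. It was 0.33 with the slide as a block, 0.39 without scaling and 0.19 without Hbb-b2. It also averages in Hba-x, of which 3 of the 4 spots were not well above background; without Hba-x it was 0.38. With shRNA1 it was 0.84, a 1.80-fold difference (slides 0.43 and 1.25), and without Hba-x 0.64 (slides 0.07 and 1.21). With shRNA2 it was 2.28 (slides 3.08 and 1.47), and without Hba-x 2.42. Without shRNA2 replicate 1 the shRNA2 value over all 3 embryonic genes was 1.13, and without replicate 2 it was 3.43. Between the hairpins the difference was -1.43, of which the first slide gave -2.65 and the second -0.21.

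**Figure D4:**
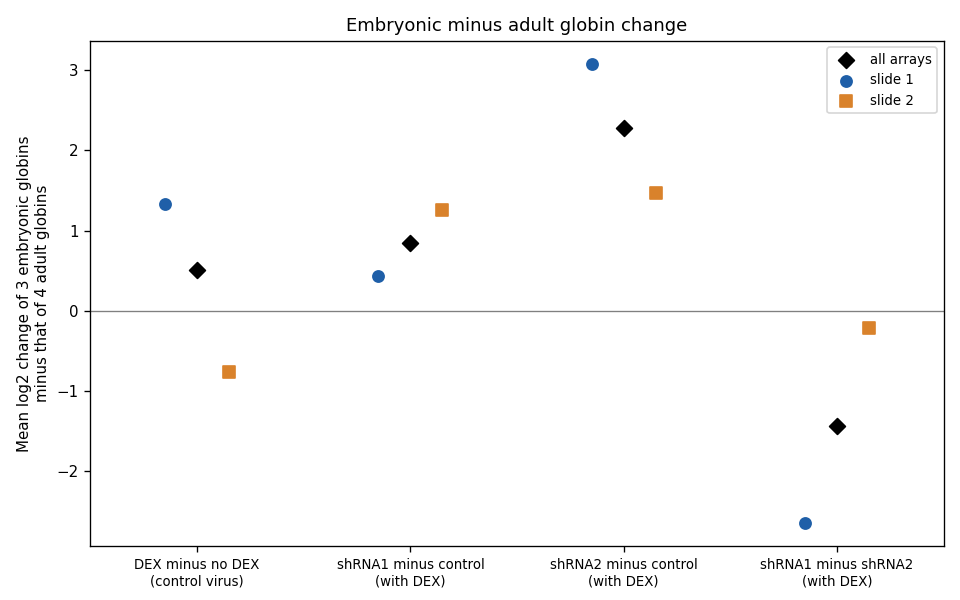
Mean log2 change of the 3 embryonic globins minus that of the 4 adult globin probes in each comparison. Values are over all arrays (diamonds) and within slide 1 (circles) and slide 2 (squares). Both slides lie above 0 for each hairpin, at 0.43 and 1.25 for shRNA1 and 3.08 and 1.47 for shRNA2, and on opposite sides of 0 for DEX, where 3 of the 4 Hba-x spots were not well above background and Hbb-b2 has 1 control array.

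Repressors and embryonic globins did not share 1 order over the arrays. Sox6 was lowest on shRNA2 replicate 1 (-4.07), where Hbb-y was highest (5.67), but nearly as low on control with DEX replicate 2 (-4.05), where Hbb-y was at -1.97. In the shRNA1 group Sox6 was higher than in the DEX controls, and Hba-x and Hbb-bh1 were too. Bcl11a was at 3.14 on shRNA2 replicate 1 and at 3.15 and 3.13 with shRNA1.

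Other genes of globin control were followed through 3 lists. Of 61 regulators of globin genes 60 were tested, and 0 passed limma in any comparison with or without the block. With DEX 34 of the 60 lay above the median of all genes, with shRNA1 24 and with shRNA2 32. Their median differed from that of all genes by 0.04, -0.12 (0.05 under quantile normalization) and 0.03. The smallest p values with DEX were those of Nfia, a factor of the nuclear factor I family, and Klf3, a repressor that competes with KLF1 at CACCC boxes. Nfia was not well above background without DEX and at least 2.33-fold higher with it, and it was tested only through groups with DEX. Klf3 differed by -0.96 with DEX (slides -0.89 and -1.03) and by 0.85 with shRNA1 (slides 0.89 and 0.81). With shRNA1 Myb, a progenitor factor that keeps erythroid maturation back, followed at -0.54 (slides -0.46 and -0.63). With shRNA2 the 2 smallest were Gatad2a (-0.67) and Gata2 (-0.51), and between the hairpins Bptf (-0.50) and Gatad2a (0.71).

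Genes of haem synthesis and supply lay mostly below the median of all genes with DEX, under each scaling. Of 24 tested, 1 lay above the median of all genes with DEX, 17 with shRNA1 and 11 with shRNA2, and 0 passed limma in any comparison, with or without the block. Their median change relative to all genes was -0.53 with DEX, 0.38 with shRNA1 and -0.05 with shRNA2 (0.06 under quantile normalization). Between the hairpins it was 0.44. Uros, which closes the ring of the haem precursor, was at 4.54 and 4.05 without DEX, at 3.36 and 2.54 with it, at 4.73 and 4.08 with shRNA1 and at 3.50 and 2.96 with shRNA2. The DEX controls lay below both the untreated controls and the shRNA1 arrays. Its change was -1.35 with DEX (limma adjusted p = 1, blocked 0.0779), 1.46 with shRNA1 and 1.18 between the hairpins. Next were the transporter genes Abcb6 with DEX (-0.83) and Abcb10 with shRNA1 (0.89) and between the hairpins (1.28). With shRNA2 the smallest p values belonged to Alas1 (0.66), the enzyme of the first haem step outside red cells, and to the iron transporter gene Slc11a2 (-0.49). Slc11a2 was at 0.48 and 0.34 in the DEX controls and at -0.64 and 0.47 with shRNA2, so its slides had opposite signs. The erythroid markers showed medians of -0.32, 0.24 and -0.14 relative to all genes in the same order, and 0.80 between the hairpins. These lists are not separate: Alas2 and Tfrc are both haem genes and erythroid markers. Klf1 and Gata1 are both markers and regulators, and Eif2ak1 is in the regulator and haem lists.

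Other globin genes and neighbours of the globin clusters gave 13 tested genes of 19, and 0 passed limma with or without the block. Relative to all genes their median was -0.20 with DEX, 0.42 with shRNA1, 0.10 with shRNA2 and 0.51 between the hairpins. Of these 13 genes, 5, 10, 7 and 10 lay above that median. Hbq1b, a theta globin gene of the alpha cluster, was at 2.48 and 1.40 without DEX, 0.65 and 0.24 with DEX, 1.59 and 0.98 with shRNA1, and 0.74 and 0.14 with shRNA2. Its change with DEX was -1.49 and that of its near copy Hbq1a -1.92, and such copies may share signal. Il9r, a cytokine receptor gene near the alpha cluster, differed by 1.55 with DEX (slides 1.52 and 1.57; limma adjusted p = 0.566, blocked 0.0847). Rhbdf1, another neighbour of that cluster, differed by 1.88 with shRNA1 and 1.18 with shRNA2, and Mpg by 0.60 with shRNA1. Snrnp25 gave -0.37 with shRNA2 and 0.75 between the hairpins, where Mpg gave 0.73. The beta cluster gene Hbb-bh2 was well above background with shRNA1 alone and was tested only for that reason. Its measured change from the DEX controls was 0.60 (slides 1.07 and 0.13), with neither control spot well above background. The scaling moved the median change of all genes with shRNA1 from -0.59 to 0.18.

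For 5 of the genes, the 3 genes with the most similar level over the 8 arrays were found among 11791 genes well above background on all of them. The arrays share 4 groups and 2 slides, so these values describe the arrays and carry no p. Hbb-y was most like Snx30 (Pearson r 0.97), Myh9 (0.96) and Cds2 (0.96). Sox6 was most like Arrdc3, Arrb1 and Cldn13 (each 0.96). For Ahsp they were Mesp2, Pik3r1 and Serinc1 (each 0.99), and for Bcl11a Hnf4a (0.89), Tnfaip1 (0.87) and Zfp407 (0.87). Hba-a1 came closest to Kctd14, F10 and Cyp2d11 (each 1.00) and its signal was nearly flat before scaling.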

How the data were processed

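Total RNA was labelled with Cy3 and hybridised to 8 Agilent 1-colour arrays. Per the file headers, the authors quantified them with Agilent Feature Extraction 10.1.1.1; the deposited processed signal is an intensity on a linear scale, detrended (spatially and multiplicatively) and with surrogates for dim spots. A second deposited file holds log2 values, with column medians of 6.65 to 6.66 and a Spearman correlation with its own arrays' median signals of 1; the sources used here do not give how it was made, and it served as an alternative. In the submitters' processing notes both limma and Agilent Feature Extraction appear with no version.

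Of 44397 spots 1377 controls were left out, and spots with outlier marks were set missing. The log2 processed signal minus the array's 75th percentile was averaged per probe. Probes were tested where some group had both its arrays well above background; a gene is its tested probe with the highest mean. The 4 groups were fitted together with lmFit and eBayes (limma 3.58.1, R 4.3.3), Benjamini-Hochberg threshold 0.05, and the fit was checked on simulated data. The simulated noise was set below that of these arrays and held no slide effect. That check therefore does not show what the fit can detect here. Sequences and plots used Python 3.11.15, pandas 2.3.3 and matplotlib 3.10.9. Differences between replicate 1 and 2 correlated at 0.43 to 0.86 between groups over all genes, so the slide was used as a block in an alternative.

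All 10 members are named, as are the list genes with the 2 smallest p in each comparison and, for 5 members, the 3 most correlated genes; single genes beyond that rule (Klf3 and Uros in other groups, Hbq1a, Hbb-bs, Hbb-bh2) were named after their values were seen. Members, lists and motifs were chosen with earlier results of these data known. A monocyte marker is not reported here and was left out of its sum.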

Additional observations from a re-analysis of the deposited data

How the results depend on the processing

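The 10 genes had 0 calls under every alternative run, so no call was there to lose. Directions of Ahsp, Sox6, Hbb-bh1 and Hbb-y with DEX, of Ahsp, Sox6, Hba-x and Hbb-bh1 with shRNA1 and of the 3 embryonic globins with shRNA2 held under all of them. Some of the alternatives leave a change as it was by construction, such as an array left out of a group that is not compared. The embryonic minus adult value with DEX was -1.59 with normexp on the local background. With shRNA2 it was 1.13 to 3.43 over the arrays left out. With the replicate block the value for DEX was 0.33, and 44 genes in all passed for DEX. Both slides held every group, so among the 10 genes the block could move only Hbb-b2 with DEX, whose direction stayed.

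Signs turned mainly for the adult globins. For DEX, Hba-a1 was 0.043 with median scaling and 0.76 with normexp on local background. Hba-a2 was -0.14 with quantile normalization, -0.18 in the authors' values and -0.017 with normexp on 1 background. Hbb-b1 was 0.067, 0.046, 0.11 and 0.72 with median scaling, quantile normalization, the authors' values and local normexp. Local normexp also gave Hbb-b2 0.075 and Hba-x -2.02. The main fit had Hba-x at 0.44, with most of its spots in that comparison not well above background. For shRNA1, Hba-a2 was -0.056 unscaled. For shRNA2, Hba-a1 was -0.087 (authors' values), -0.22 (unscaled), -0.58 (local normexp) and -0.026 (quantile); Hba-a2 -0.22, -0.23 and -0.66 in the first 3; Hbb-b1 -0.11 unscaled and -0.53 with local normexp. Hbb-b2 was -0.090 in the authors' values, -0.085 under median scaling, -0.44 unscaled and -0.90 with local normexp. Local normexp put Sox6 at 1.87 with shRNA2 and, between hairpins, Sox6 at -0.82 and Bcl11a at 0.74. The genes left out of the embryonic minus adult mean, and the unscaled signals, were chosen after seeing the data. The causes were not tested.

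Leaving out 1 array turned these signs, with ranges for DEX of -0.66 to 0.55 (Hba-a1), -0.49 to 0.54 (Hba-a2), -0.56 to 0.50 (Hbb-b1) and -0.26 to 1.14 (Hba-x); for shRNA1 of -0.060 to 1.64 (Hba-a1), -0.083 to 1.51 (Hba-a2) and -0.31 to 2.73 (Hbb-y); for shRNA2 of -0.53 to 1.29 (Hba-a1), -0.45 to 1.18 (Hba-a2), -0.37 to 1.33 (Hbb-b1), -0.66 to 0.99 (Hbb-b2), -0.33 to 0.22 (Ahsp), -0.36 to 0.28 (Bcl11a) and -1.04 to 0.13 (Sox6). Between hairpins they were -0.50 to 1.32 (Hba-a1), -0.47 to 1.17 (Hba-a2), -0.53 to 1.17 (Hbb-b1), -2.33 to 1.82 (Hba-x), -1.63 to 0.63 (Hbb-bh1), -4.91 to 0.70 (Hbb-y) and -0.64 to 0.0038 (Bcl11a). With 2 arrays a group the number of arrays limits the precision, and a lone array is assumed to vary like the other groups.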
